A study of Mus musculus with 10 samples.

Results

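Leydig cells, which lie between the seminiferous tubules, make the testosterone of the testis. The 10 genes of that work were followed here by name, the members being Star, Cyp11a1, Cyp17a1, Hsd3b1, Hsd3b6, Hsd17b3, Insl3, Lhcgr, Scarb1 and Fdx1. They were taken as all transcripts with a RefSeq NM_ identifier whose gene name is one of the 10, with counts and FPKM summed per gene. Of the 10 members, 9 were listed in at least 1 of 10 samples, among 16082 NM_ genes listed in all.

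The samples came from mice labelled as C57BL/6 and as 3 to 5 months old, whereas the study's methods give the strain as C57BL/6J and the age in weeks with a lower starting age. The control group was 4 pools of mature sperm and 2 testes samples from mice that received saline per the labels, and the cadmium group was 2 sperm and 2 testes samples from mice given 1 injection of 3 mg/kg CdCl2 into the peritoneum. Per the labels, both groups were killed on day 35 and 50 mice per arm were injected, while the study's methods, which cover only the control samples, name no injection and another number of mice. Sperm were collected from the vas deferens and caudal epididymis and purified, the testes samples were about 10 mg of whole tissue and not sorted Leydig cells, and control sperm 1 was left out of the study's own comparisons. Ribosomal RNA was removed with RNase H before sequencing. By those methods the control sperm pools came from different mice and the 2 control testes samples were replicates made from these same mice, and nothing ties the cadmium samples to separate animals, so the p-values below measure only the spread between these samples, which may be technical in the cadmium groups.

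Steroid hormone synthesis in Leydig cells is switched on by luteinizing hormone through its receptor. Cholesterol is taken up and stored, moved into the mitochondrion by StAR, and cut to pregnenolone by the side-chain cleavage enzyme, which receives its electrons from ferredoxin. The 3-beta-hydroxysteroid dehydrogenases, CYP17A1 and HSD17B3 then turn pregnenolone into testosterone, and the same cells secrete the peptide hormone INSL3, known for its part in the descent of the testis.

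The libraries held 366455 to 1058017 expected counts in control sperm, 1155491 and 1254477 in cadmium sperm, and 2606086 to 2866856 in the testes samples, of which 9.14 to 13.6% fell on NM_ transcripts. Expected counts estimate how many fragments each transcript gave, and FPKM corrects them for transcript length and library size. Levels in CPM are counts scaled to the library total alone. At these depths 3 counts, taken as the smallest amount that a library can show, were 1.05 to 1.15 CPM in testes and 2.39 to 8.19 CPM in sperm. Intervals and floors given below cover counting error only.

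The members were few in counts even in testes. Their summed FPKM in testes was 31.8 and 28.3 for the control and 30.1 and 21.5 for the cadmium samples. In sperm it was 0, 4.31, 27.5 and 2.96 in control sperm 1 to 4, and 9.21 and 11.1 in the cadmium samples. Star alone gave 75.5 to 78.3% of the member counts in the 4 testes samples and all of the counts in control sperm 3 and 4. Without Star the sums were 17.1, 14.1, 15.5 and 11.6 FPKM in control testes 1 and 2 and cadmium testes 1 and 2, against 0, 0.52, 0 and 0 in the control sperm pools and 5.74 and 5.49 in cadmium sperm. In bulk samples, fewer cells of a type and less RNA per cell cannot be told apart.

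**Figure D1:**
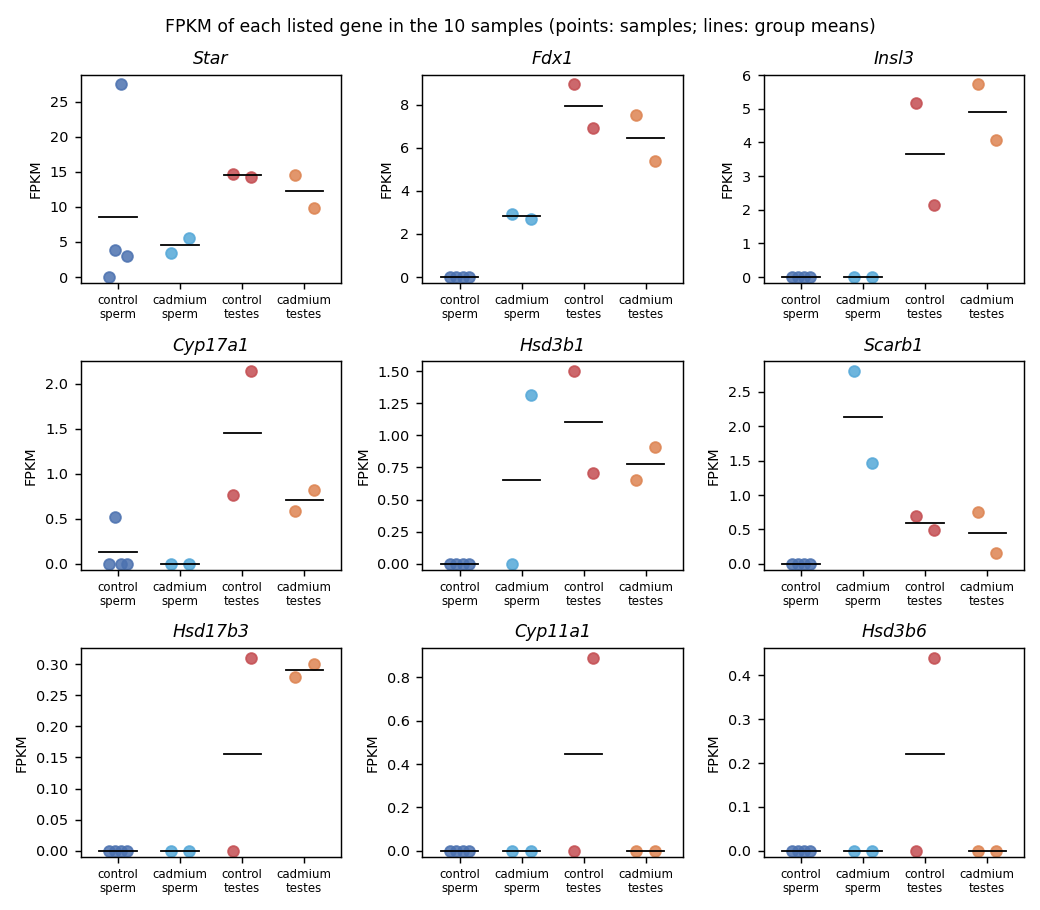
FPKM of the 9 listed members in every sample, 1 panel per gene with its own linear axis; each point is a sample and each line a group mean, over all 4 control sperm pools. Star was listed in both tissues and was highest in control sperm 3 at 27.5 FPKM, and Insl3 was at 0 in all 6 sperm samples.

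The levels spanned a wide range within the set. Over the 4 testes samples, mean FPKM was 13.4 ± 2.35 for Star, 7.20 ± 1.47 for Fdx1, 4.28 ± 1.58 for Insl3, 1.08 ± 0.714 for Cyp17a1, 0.943 ± 0.388 for Hsd3b1 and 0.525 ± 0.268 for Scarb1 (SD, n = 4). Hsd17b3, Cyp11a1 and Hsd3b6 came below these, at 0.223 ± 0.149, 0.223 ± 0.445 and 0.11 ± 0.22 FPKM (SD, n = 4), and Lhcgr was at 0. The ranges of Star and Fdx1 did not overlap, nor did those of Insl3 and Cyp17a1, whereas Fdx1 and Insl3 overlapped, as did every pair of neighbours from Cyp17a1 down to Hsd3b6. Among 15473 NM_ genes listed in testes, whose median was 0.395 FPKM, Star ranked 518, Fdx1 979 and Insl3 1547. Cyp17a1, Hsd3b1 and Scarb1 also lay above that median, and Hsd17b3, Cyp11a1 and Hsd3b6 lay below it.

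The windows of 250 bases upstream of the start are shown for Insl3 and Fdx1. These are the members called between sperm and testes by the test described further on, which both entered through testes alone in the control mice. They come from the RefSeq promoter table of GRCm38.p6, which matched 7 of the 10 members, with a pair of windows for Cyp11a1. Each is written 5′ to 3′ on the strand of its gene, and capitals mark CAAGG or its reverse complement CCTTG, the leading letters of the site bound by the orphan receptor NR5A1. This core was picked after the sequences were seen. Insl3 (chr8:71689002-71689251, plus strand) and Fdx1 (chr9:51963603-51963852, minus strand) read as follows.
Insl3: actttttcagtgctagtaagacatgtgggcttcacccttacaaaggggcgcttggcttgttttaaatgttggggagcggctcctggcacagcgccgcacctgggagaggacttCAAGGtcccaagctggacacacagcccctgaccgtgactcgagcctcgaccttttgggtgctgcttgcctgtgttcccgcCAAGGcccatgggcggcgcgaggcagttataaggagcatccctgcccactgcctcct
Fdx1: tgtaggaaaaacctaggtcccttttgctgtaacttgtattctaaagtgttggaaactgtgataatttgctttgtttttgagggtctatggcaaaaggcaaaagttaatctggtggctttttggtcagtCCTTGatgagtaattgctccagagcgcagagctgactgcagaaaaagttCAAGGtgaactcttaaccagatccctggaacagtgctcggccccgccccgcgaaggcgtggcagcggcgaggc
Both windows held the core at 2 places, starting at -137 and -57 for Insl3 and at -122 and -73 for Fdx1. Hsd3b1, Hsd17b3 and Lhcgr held it once each, at -128, -99 and -118, and neither Hsd3b6 nor the windows of Cyp11a1 held it. The core occurs in 46.0% of all 32851 promoter windows of this length, so its presence sets none of these genes apart. The fuller form of that site, AAGGNCA, was searched on either strand with 50 bases after the start added, and was in none of the member windows and in 20.3% of all promoters. The GATA factor site GATAAG likewise had no match, against 7.44% of promoters. The same was true of the TATA box letters TATAAA, which 13.6% of promoters hold. The Insl3 window and gene lie inside the span of Jak3, which codes for a kinase of cytokine receptors.

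The receptor came first by role. Lhcgr, the receptor of luteinizing hormone (chr17:88716384-88792059 in GRCm38.p6), had 0 counts in all 10 samples. With 3 counts as the limit, up to 1.05 CPM in the deepest testes library and up to 8.19 CPM in the shallowest sperm library could have gone unseen, so this transcript was not detectable at this depth.

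Cholesterol supply was represented by Scarb1 and Star. Scarb1 (chr5:125277087-125341094), which codes for the receptor that takes up cholesterol from high-density lipoprotein, was at 0.70 and 0.49 FPKM in control testes and at 0.75 and 0.16 FPKM in cadmium testes. It was at 0 in all 4 control sperm pools and at 2.80 and 1.47 FPKM in cadmium sperm, from 7 and 4 counts. The values of cadmium sperm thus stood above those of every other sample. At 6.06 and 3.19 CPM they lay under the floors of 7.07 and 8.19 CPM in control sperm 1 and 3, where such a level could have gone unseen. The counts fell on different transcripts: NM_001205083 in both cadmium sperm samples, NM_016741 in control testes 1, and NM_001205082 in the other 3 testes samples, so FPKM here rests on unequal transcript lengths of 2192, 2521 and 2392 nt.

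Star (chr8:25808474-25815982), which codes for the protein that carries cholesterol to the inner mitochondrial membrane, was at 14.7 and 14.3 FPKM in control testes and at 14.6 and 9.84 FPKM in cadmium testes. In control sperm 1 to 4 it was at 0, 3.79, 27.5 and 2.96 FPKM. In cadmium sperm it was at 3.47 and 5.59 FPKM. The control testes and cadmium testes 1 were high and close to each other and cadmium testes 2 was lower, while the control sperm pools ran from nothing to the highest level of the study. The highest sperm value came from 40 counts in the shallowest library (exact Poisson interval at 95%, 28.6 to 54.5 counts), and equals 109 CPM against 58.6 and 56.8 CPM in control testes. All Star counts were on 1 transcript of 4007 nt.

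Side-chain cleavage was represented by Cyp11a1 and Fdx1. Cyp11a1 (chr9:57998024-58027031), which codes for the side-chain cleavage enzyme, was listed in control testes 2 only, at 0.89 FPKM from 4 counts, and at 0 in the other 9 samples. Fdx1 (chr9:51943023-51963602), which codes for the ferredoxin that feeds mitochondrial P450 enzymes in many tissues, was at 8.95 and 6.92 FPKM in control testes and at 7.53 and 5.39 FPKM in cadmium testes. It was at 0 in all 4 control sperm pools and at 2.94 and 2.71 FPKM, from 4 counts each, in cadmium sperm. The listed values did not overlap: every testes sample lay above cadmium sperm, and cadmium sperm above the control pools. However, cadmium sperm were at 3.46 and 3.19 CPM, under the floors of 7.07, 8.19 and 5.90 CPM in control sperm 1, 3 and 4. In those pools such a level could have gone unseen.

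The later enzymes were at the edge of detection. Hsd3b1 (chr3:98842356-98859794) and Hsd3b6 (chr3:98805504-98814443) code for near-identical 3-beta-hydroxysteroid dehydrogenases, so the split of reads between them is uncertain. Hsd3b1 was at 1.5 and 0.71 FPKM in control testes, 0.65 and 0.91 FPKM in cadmium testes, 0 in the control sperm pools, and 0 and 1.31 FPKM in cadmium sperm. The 3 counts behind the last value were on another transcript, NM_008293, than the counts of the testes samples, which were on NM_001304800. Hsd3b6 was listed in control testes 2 only, at 0.44 FPKM from 2 counts.

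Cyp17a1 (chr19:46667165-46673000), whose enzyme opens the branch to androgens, was at 0.77 and 2.14 FPKM in control testes and 0.59 and 0.82 FPKM in cadmium testes. A single count gave 0.52 FPKM in control sperm 2, and the other 5 sperm samples were at 0. Hsd17b3 (chr13:64058274-64089262), whose enzyme makes testosterone from androstenedione, was at 0 and 0.31 FPKM in control testes, 0.28 and 0.30 FPKM in cadmium testes and 0 in sperm, with 1 count behind each value above 0. The control and cadmium testes overlapped for Cyp17a1 and for Hsd17b3.

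Insl3 (chr8:71689252-71690577), the peptide hormone gene, was at 5.17 and 2.15 FPKM in control testes and 5.73 and 4.06 FPKM in cadmium testes. All 6 sperm samples were at 0. The counts in testes were 8, 3, 8.79 and 5.9, and the last 2 of these are not whole, as estimated counts need not be. Jak3, which overlaps Insl3, was at 0 FPKM in both control testes samples and at 0.20 and 0.10 FPKM in cadmium testes, and whether reads were shared with it was not tested.

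The 4 comparisons were fitted with the quasi-likelihood test of edgeR over all features that reached 1 FPKM in 2 or more samples, and a feature was called at a Benjamini-Hochberg adjusted p under 0.05 with more than 2-fold change. In the tests control sperm means pools 2, 3 and 4. The comparisons of sperm with testes in control and in cadmium mice share no sample, nor do those of cadmium with control in testes and in sperm, while every other pair shares a group. Each standard error (SE) was worked back from the test statistic. A gene passing this filter through 1 side alone had to be higher there, so the numbers of members called are no support for a difference of the set.

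Between control sperm and control testes, Fdx1 and Insl3 were called lower in sperm and Star did not pass the test. Fdx1 and Insl3 passed the filter through testes alone, so they could only be lower in sperm. In all, 3 members passed the filter, of which 2 were called, where 21.8% of all 24432 features were called, 17.6% lower and 4.15% higher in sperm. Fdx1, at 0 counts in sperm and 52 in testes, had a log2 fold change of -6.87 (SE 2.46, adjusted p = 0.0477, edgeR). Against a floor of 3 counts over the sperm group, testes were 6.12-fold higher in Fdx1, with the testes counts taken as found and their error left out. Insl3, at 0 and 11 counts, had a log2 fold change of -4.63 (SE 1.77, adjusted p = 0.0497, edgeR), and its ratio to that floor was 1.29-fold. Neither these ratios nor the fitted values of such genes, which depend on the prior count, are bounds.

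Both calls lay close to the threshold. Without control sperm 2, 4, or either testes sample, none of the members was called, and without control sperm 3 only Fdx1 was; without a testes sample neither gene passed the filter. Over the alternatives the adjusted p ranged from 0.00171 to 0.628 for Fdx1 and from 0.0014 to 0.811 for Insl3. Star had a log2 fold change of -0.80 (SE 0.90, adjusted p = 0.553, edgeR) beside a median of -1.24 over all features tested, and without control sperm 3 this was -1.99.

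Between cadmium sperm and cadmium testes, Insl3 was called lower in sperm, and Star, Fdx1 and Scarb1 did not pass the test. Insl3 passed the filter through testes alone, so it could only be lower in sperm. In all, 4 members passed the filter and 1 was called, where 31.6% of all 25779 features were called, 15.4% lower and 16.2% higher in sperm. Insl3, at 0 counts in sperm and 14.69 in testes, had a log2 fold change of -5.39 (SE 2.20, adjusted p = 0.0465, edgeR). Its testes counts, taken as found, were 2.12-fold above the floor of 3 counts over the sperm group. The call was lost without either sperm sample, and without either testes sample Insl3 no longer passed the filter, and the adjusted p ranged from 0.00709 to 0.213 over the alternatives. Star was at -1.13 (SE 0.56, adjusted p = 0.111), Fdx1 at -0.91 (SE 0.87, adjusted p = 0.443) and Scarb1 at 2.30 (SE 1.04, adjusted p = 0.0731) on the log2 scale of edgeR, beside a median of -0.30 over all features. The value of Scarb1 was 3.26 without cadmium testes 1 and 1.67 without cadmium testes 2. With NM_ genes fitted alone, Star passed with a log2 fold change of -1.28 (adjusted p = 0.0332, edgeR).

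**Figure D2:**
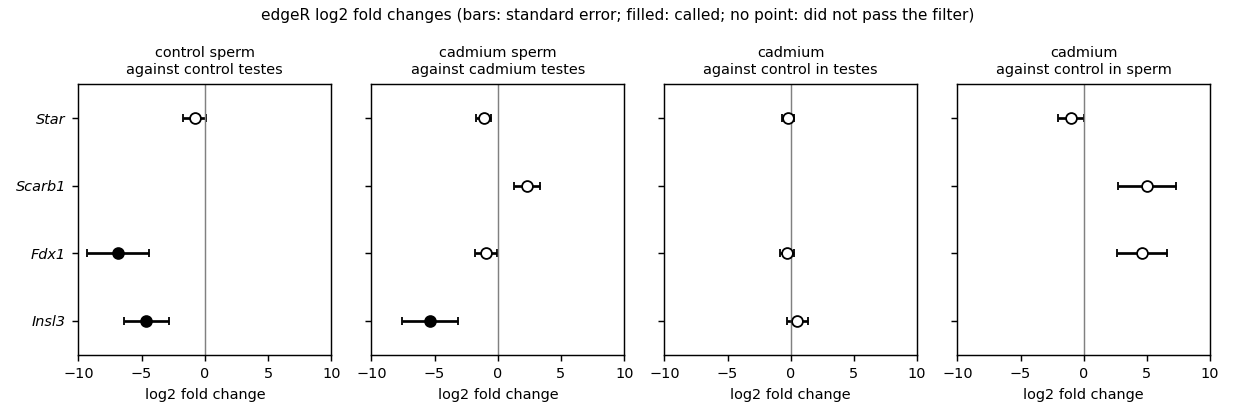
Log2 fold changes of the members that passed the filter in each of the 4 comparisons; bars are 1 standard error, filled points were called and open points were not. Fdx1 and Insl3 in the control mice and Insl3 in the cadmium mice were called lower in sperm, and no member was called between cadmium and control.

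The 9 members other than Star can be set against the depth of the sperm libraries. At the share they held in control testes, these 9 genes would have given 7.91, 19.7, 6.83 and 9.47 counts in control sperm 1 to 4, and 0, 1, 0 and 0 were found. Together this is 1 count found (exact Poisson interval at 95%, 0.0253 to 5.57) against 43.9 at the testes share. Of the latter, Fdx1 alone made up 22.4, and no other gene more than 6.03. In cadmium sperm, 11 and 11 counts were found against 16.4 and 17.8 at the share of cadmium testes. The sum of 22 counts (interval 13.8 to 33.3) was made of 11 from Scarb1, 8 from Fdx1 and 3 from Hsd3b1. Insl3 alone would have given between 0.737 and 3.32 counts per sperm library, so 0 in any single one of them carries little.

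**Figure D3:**
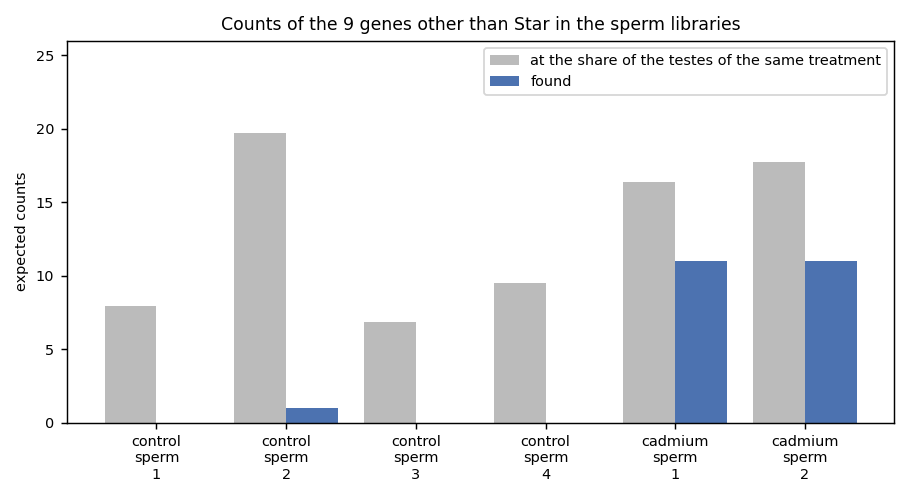
Expected counts of the 9 members other than Star in the 6 sperm libraries, beside the counts that the library would hold at the share found in testes of the same treatment; bars start at 0. The control pools held 0 or 1 count and the cadmium samples 11 each.

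Star was listed in 3 of the 4 control sperm pools, in which the other 9 members gave 1 count in all. At the testes share it would have given 24.5, 61.1, 21.2 and 29.3 counts in control sperm 1 to 4, and 0, 16, 40 and 6 were found. In cadmium sperm 16 and 28 Star counts were found against 56.4 and 61.2. Summed, this was 44 against 118, beside 22 against 34.1 for the other 9 members, so there Star was the further below its testes share. The difference between Star and the other members was not tested. Control sperm 3 was the 1 sperm library above the testes share for Star, with none of the other 9 members listed.

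**Figure D4:**
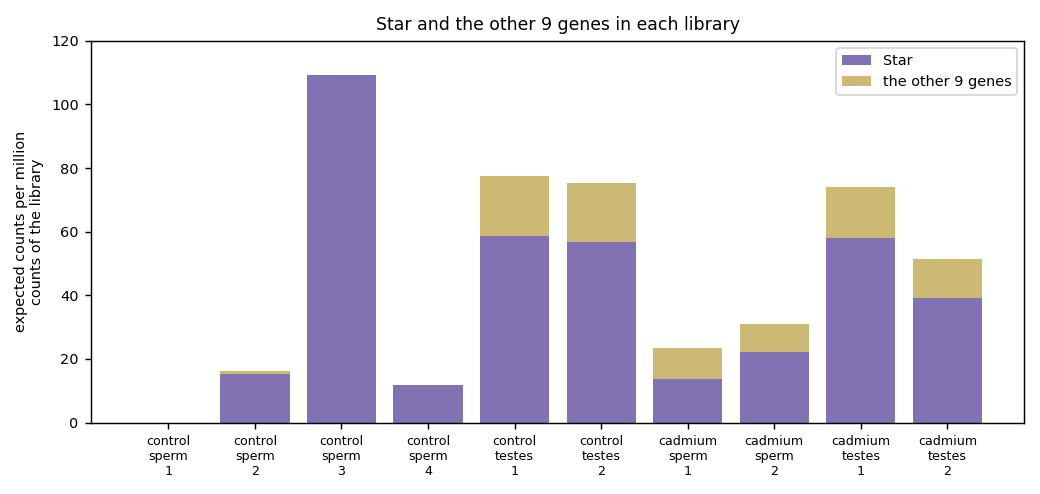
Expected counts in CPM for Star and for the other 9 members, stacked, in each of the 10 samples. Star made up most of each bar, control sperm 1 held none of the 10 genes, and the tallest bar, control sperm 3 at 109 CPM, was Star alone.

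Cadmium and control testes did not differ in any member by this test. Star, Fdx1 and Insl3 passed the filter and 0 were called, where 0.0225% of 26724 features were called, 6 in all. The log2 fold change was -0.21 for Star (SE 0.46), -0.26 for Fdx1 (SE 0.56) and 0.53 for Insl3 (SE 0.82), with an edgeR adjusted p of 1.00 for each and a median of 0.02 over all features. At an unadjusted p under 0.05, 226 features and none of these 3 members passed, and DESeq2 called 5 features and 0 members. Without the filter the other members could be fitted where they had counts, and Cyp17a1 was at -0.99 (SE 0.93, edgeR adjusted p = 1.00) and Hsd3b1 at -0.37 (SE 1.00, edgeR adjusted p = 1.00). With 2 samples per group, differences of this size were not detectable at this depth, which does not show that the levels were alike.

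Cadmium testes 2 was the lowest testes sample for Star, Fdx1 and Scarb1. In that library the 6 epididymal epithelium markers summed to 10.7 FPKM, from Lcn5 at 3.99 and Adam7 at 3.55 among others, against 0.26 in cadmium testes 1 and 0.1 and 1.87 in control testes. Cdh1 was at 0 in all 4. The part of these markers in the lower values of Star, Fdx1 and Scarb1 was not tested. Hsd3b1, Cyp17a1 and Hsd17b3 were higher in cadmium testes 2, at 0.91, 0.82 and 0.30 FPKM, than in cadmium testes 1, at 0.65, 0.59 and 0.28 FPKM.

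Cadmium and control sperm did not differ in any member by the test either, although Fdx1 and Scarb1 were listed in both cadmium samples and in none of the control pools. Star, Fdx1 and Scarb1 passed the filter and 0 were called, where 0.0824% of 20638 features were called, 17 in all. Fdx1 had a log2 fold change of 4.59 (SE 2.0, adjusted p = 0.547, edgeR) and Scarb1 one of 5.02 (SE 2.27, adjusted p = 0.547, edgeR), beside a median of 0.43. Against the floor of 3 counts over the control pools, the cadmium sperm counts, taken as found, were 2.14-fold higher in Fdx1 and 2.94-fold higher in Scarb1. These ratios are not bounds. At an unadjusted p under 0.05, 1354 features passed, these 2 genes among them, and DESeq2 called 10 features and 0 members and gave neither gene an adjusted p. With limma on log2(FPKM + 0.1) both passed (adjusted p = 0.0255 for each), and over the other alternatives neither did. Star was at -1.01 (SE 1.01, adjusted p = 1.00, edgeR), and at 0.31 without control sperm 3, so 1 pool set its direction.

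Other values moved with Fdx1 and Scarb1 in sperm. The cadmium sperm libraries were deeper and listed 7829 and 7555 NM_ genes against 1552 to 6733 in the control pools. Of the 6 epididymal epithelium markers 3 were listed in cadmium sperm, summing to 2.70 and 3.08 FPKM, and 1 in the control pools, at 0 to 2.85 FPKM. Crisp1 was at 2.50 and 2.31 FPKM in cadmium sperm and 0 in the control pools, and Cdh1 at 0.20 and 0.54 FPKM against 0. The 2 leukocyte markers, Cd4 and Ptprc, summed to 1.86 and 1.04 FPKM in cadmium sperm and to at most 0.62 in the pools. Kit, a marker of testicular germ cells, was at 0 in all 6, but it had only 1 count over all testes samples, so this carries little. Gfra1, from the same spermatogonia list, was listed in all 6 sperm samples, at a mean of 2.08 FPKM. The part of depth and of these markers in the Fdx1 and Scarb1 counts was not tested.

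The cells of the testes samples were checked by their markers. Of 6 further Leydig cell markers, 5 were listed in testes, with summed FPKM of 2.22 to 4.09, but the highest of them, Akr1b7, was higher in sperm, at 13.0 to 69.7 FPKM, than in testes, at 0.58 to 1.75 FPKM. Between cadmium sperm and testes its log2 fold change was 5.78 (SE 0.72, adjusted p = 1.54e-13, edgeR), and between control sperm and testes 3.19 (SE 1.58, adjusted p = 0.140, edgeR). Akr1b7 codes for an aldose reductase known also from the vas deferens, from which these sperm were taken in part. Of the spermatid genes, Prm1, Prm2, Tnp1 and Tnp2 were far above the members, Prm2 at 147 to 281 FPKM in testes. Tssk6, Spaca1, Acrv1 and Acr were below Star there, at means of 8.68, 5.88, 2.43 and 0.67 FPKM. The endothelial and fibroblast lists summed to at most 0.35 and 0.84 FPKM in testes. Of the 3 adrenal cortex genes Cyp11b1 was at 5.18 and 1.03 FPKM in control testes and 4.74 and 1.04 FPKM in cadmium testes, levels above Cyp11a1 in each, and Cyp11b2, whose near-identical sequence makes the split uncertain, at 2.11 to 3.51 FPKM. Cyp21a1 was at 0 to 0.37 FPKM.

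The marker lists of the other testis cell types summed to unequal levels, which do not measure how much of a cell type was present. In the 4 testes samples, summed FPKM was 3.89 to 6.04 for 9 Sertoli cell markers, 1.09 to 2.85 for 3 androgen-dependent Sertoli genes, 5.74 to 8.78 for 8 macrophage markers and 12.0 to 17.1 for 5 peritubular myoid markers, of which Tagln gave 10.8 to 15.0. The germ cell lists summed to 19.9 to 27.5 for spermatogonia, almost all of it Gfra1, to 1.97 to 6.90 for spermatocytes and to 480 to 588 for spermatids, and 4 metal response genes summed to 3.61 to 6.04. Of the marker genes that passed the filter, none was called between cadmium and control. Of all features tested, 0.0225% were called in testes and 0.0824% in sperm. Most of the 74 did not pass the filter, among them all endothelial and fibroblast markers, and were not tested. Between sperm and testes, Lyz2, Gfra1, Sycp1, Spaca1, Tnp1 and Prm1 were called lower and Tssk6 higher in control sperm, where 21.8% of all features were called. In cadmium sperm, Gfra1, Spaca1, Tnp1, Tnp2 and Prm1 were called lower and Akr1b7, Slc30a1 and Tssk6 higher, where 31.6% of all features were called. Sycp1 and Spaca1 were at 0 in all 6 sperm samples and Lyz2 at 0.85 FPKM or less. These genes passed the filter through testes alone and had to be lower in sperm.

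Around the members, 47 of 52 other genes of the pathway were listed in at least 1 sample, but only 18 in all 4 testes samples and 12 at a mean of 1 FPKM or more there. Between control sperm and testes 8 passed the filter, with 0 called higher and 2 lower, where 21.8% of all features were called, and in the cadmium mice 11 passed, with 2 called higher and 3 lower, where 31.6% of all features were called. The median log2 fold changes of those that passed were -0.85 and 0.57, beside -1.24 and -0.30 over all features. Between cadmium and control 11 passed in testes and 9 in sperm, with 0 called in each, where 0.0225% and 0.0824% of all features were called.

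Dhh, the hedgehog ligand that Sertoli cells send to fetal Leydig cells, was the highest of the pathway genes in testes, at 13.9 and 18.3 FPKM in control and 15.9 and 18.1 FPKM in cadmium samples. It was called lower in sperm in the control mice (log2 fold change -3.48, SE 1.28, adjusted p = 0.0477, edgeR) and in the cadmium mice (-3.03, SE 0.68, adjusted p = 9.85e-05, edgeR). Hhip, its binding protein, was at 0.34 to 0.54 FPKM in testes. The other targets of the signal were at or near 0, Ptch1 at 0 to 0.16 and Gli1 at 0.

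In cholesterol synthesis, Lss, which closes the sterol rings, was called lower in sperm and Fdft1, which makes squalene, lower in cadmium sperm. Lss was at 1.64 to 4.41 FPKM in testes, 0 in the control sperm pools, and 0.89 and 0 in cadmium sperm, and was called lower in sperm in control (adjusted p = 0.0227, edgeR) and cadmium mice (log2 fold change -2.38, adjusted p = 0.0108, edgeR). In the control mice it passed the filter through testes alone, whose counts, taken as found, were 12.6-fold above the floor of 3 counts over the sperm group. Fdft1 was called lower in the cadmium mice only (-2.0, adjusted p = 0.0272, edgeR; control -1.43, adjusted p = 0.485, edgeR), and the difference between the mice was not tested.

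Of the 9 transcription factors, Gata6 was the highest in testes, at 3.09 to 8.30 FPKM, and Nr5a1, the factor that drives most steroidogenic genes, was at 2.51 and 0.92 FPKM in control and 0.72 and 0.25 FPKM in cadmium testes. The control and cadmium values of Nr5a1 did not overlap, but it did not pass the filter in that comparison, and it was at 0 in every sperm sample but cadmium sperm 1, at 0.59 FPKM. Nr2f2, a marker of the Leydig cell precursors, was called higher in cadmium sperm than in cadmium testes (log2 fold change 6.91, SE 1.52, adjusted p = 6.61e-05, edgeR), from 2.06 and 1.14 FPKM against 0, and it passed the filter through sperm alone, where it had to be higher. Against the floor of 3 counts over cadmium testes it was 12.3-fold higher, with the sperm counts taken as found. In the control mice it was at 0 to 3.92 FPKM in sperm and at 0.17 and 0.09 FPKM in testes.

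Genes for electron supply, androgen conversion and the other 3-beta-hydroxysteroid dehydrogenases passed the filter in none of the comparisons. Por, the reductase of microsomal P450 enzymes including CYP17A1, was at 0.14 to 0.70 FPKM in testes, and Fdxr, the reductase of ferredoxin, at 0 to 0.19 FPKM. Hsd11b1 was at 0.53 and 0.59 FPKM in control testes, from 4 counts in all, and at 0 in cadmium testes. Its control level of 0.73 CPM was under the floors of 1.05 to 1.15 CPM in testes, so the 0 does not show a loss. Hsd17b4 was at 0 to 0.29 FPKM in testes, Hsd3b7 at 0 to 0.64 and Hsd3b5 at 0 to 0.45. In cholesterol transfer and storage, Acbd3 was at 1.53 to 2.46 FPKM and Lipe, the hormone-sensitive lipase, at 0.46 to 2.65 FPKM in testes. Of these 9 genes at most 4 passed the filter in a comparison, and none was called.

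The genes closest to the members by profile were found by comparing each gene's share of its FPKM over the 10 samples with that of the summed members. Among 1353 genes with a mean of at least 5 FPKM in testes, the closest were Pde7a, Gemin4, Tdrd6, Pdxp and Fam71b, whose shares differed from the members by 0.0830, 0.0870, 0.0924, 0.0957 and 0.0961 of a total of 1. Star itself differed by 0.146 and Fdx1 by 0.208. The summed profile is mostly Star, with 16.5% of its total in control sperm 3, and Pde7a likewise held its highest sperm value there, at 8.19 FPKM against 0 to 1.96 in the other sperm samples.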

How the data were processed

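Total RNA of sperm and testes was sequenced, and samples were grouped by the labels. The authors filtered the reads and deposited 1 table per sample that lists transcripts above 0. Its expected counts were deposited as estimates without normalization, and its FPKM were deposited after correction for length and depth. The aligner is SOAP2 in the study's methods and HISAT, with mm10, in the submitters' processing notes, and the tool that counted is not given in the sources used here. Transcripts not listed were taken as 0.

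Transcripts were summed by gene name within each identifier class, giving 69572 features, and 0 transcripts of another class carried a member's name. Expected counts were rounded to whole numbers and tested with edgeR 4.0.16 (R 4.3.3; glmQLFit, glmQLFTest, TMM). DESeq2 1.42.0, limma 3.58.1 on log2(FPKM + 1) and log2(FPKM + 0.1), no filter, no TMM, NM_ genes alone, all 4 control sperm pools, a replicate block and leaving out each sample were alternatives. With 2 samples against 2 or 3, exact permutation tests cannot go below p = 0.333 or 0.2 and were not used. The edgeR script was checked on simulated counts whose changed features were well covered in every library. That check does not cover genes with few or no counts in a group, such as the called members. Replicates differed by more than counting noise (chi-square per degree of freedom 9.57 to 16.5). Exact Poisson intervals used scipy 1.17.1.

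The members, the 52 pathway genes and the 74 marker genes were chosen with earlier results of these data known. Named from each list were genes called in a comparison, up to 3 by size of change, and the 2 highest in testes. Gene positions are RefSeq's, in GRCm38.p6. The values of 1 of the pathway genes are not reported here.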

Additional observations from a re-analysis of the deposited data

Results flagged for a closer look

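In the 4 control sperm pools, control sperm 3 lay far from the others in Star (27.49 FPKM), in the summed FPKM of the 10 members (27.49) and in their summed CPM (109). Control sperm 2 lay apart in Cyp17a1 (0.52 FPKM) and in the members without Star (0.52 FPKM), in both cases through 1 count. Chance alone sets a sample apart in this way in about 1 group in 20 of continuous values, but a single count in 1 of 4 pools does so by construction. The 5 values are 2 underlying ones.

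For Scarb1, sperm minus testes was -0.595 FPKM between the means in the control mice and 1.68 FPKM in the cadmium mice, with the same sign in every sample. Its level in control testes, 1.46 CPM, was under the floor of every control sperm pool, of which the lowest was 2.84 CPM. The 0 in those pools thus does not show a lower level. Fdx1 was lower in cadmium than in control testes by the means, with a difference of -1.48 FPKM and overlapping samples. It was higher in cadmium than in control sperm, by 2.83 FPKM, a level under the floor of control sperm 1, 3 and 4. Neither difference between the groups was tested.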

How the results depend on the processing

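In control sperm against testes, where 2 members and 5319 features were called, no filter gave 0 and 1344, DESeq2 1 and 3123, library totals without TMM 1 member, NM_ genes alone 1214 features, and all 4 control sperm pools with a replicate block 1 and 1566. That 1 member was Star, at -3.64 (adjusted p = 0.0440, edgeR), and Fdx1 and Insl3 lost their calls under the block (adjusted p = 0.628 and 0.811, edgeR). Leaving out 1 sample gave 0 to 1 members and 880 to 4314 features. Without TMM the median over all features moved from -1.24 to -1.13 in the control and from -0.30 to -0.56 in the cadmium mice, and with DESeq2 from 0.43 to 0.31 between the sperm groups. The share of calls higher in sperm was 19.0% with edgeR and 34.6% with DESeq2. In cadmium sperm against testes, with 1 member and 8154 features, no filter, library totals without TMM and a replicate block gave 0 members, DESeq2 0 and 4945, NM_ genes alone 2 and 2290, and leaving out 1 sample 0 to 0 members and 563 to 4886 features. DESeq2 gave Insl3 no adjusted p in either. Between the testes groups, with 6 features called, no filter gave 88, library totals without TMM 0, both limma fits 0, NM_ genes alone 0, a replicate block 89 and leaving out 1 sample 4 to 29, with 0 members throughout. Between the sperm groups, with 17 features and 0 members, DESeq2 gave 10 features, limma on log2(FPKM + 1) 0, limma on log2(FPKM + 0.1) 1168 features and 2 members (Fdx1 and Scarb1), NM_ genes alone 3 and leaving out 1 sample 7 to 42. Star between the sperm groups went from -1.01 to between -1.57 (without control sperm replicate 4) and 0.31 (without replicate 3) when 1 sample was left out, and to 1.72 with all 4 pools and a replicate block. The cause was not tested for any of these changes, other than the fewer features or samples that a setting itself brings.

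Replicate numbers are shared by the groups, but only 2 pairs exist and no label says what a number marks. The differences between replicates 1 and 2 correlated across features at 0.725 between the testes groups, 0.265 between cadmium sperm and testes, 0.0688 between control sperm and testes and -0.0428 between the sperm groups. The depth limits most members: 6 of the 10 were listed in all 4 testes samples, and 4 reached a mean of 1 FPKM there.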
